A study of Mus musculus with 6 samples.

Results

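The 30 ribosome biogenesis genes described here encode proteins that make ribosomes in the nucleolus and are not themselves part of the finished ribosome. They were taken from a list that was chosen with earlier results of these data known. They were found on an Affymetrix array of the mouse genome through 64 probe sets that are annotated to exactly 1 gene. In all there were 45037 probe sets and 18193 genes. The RNA came from CD8 T cells of P14 LCMV TCR transgenic C57BL/6 mice, 8 to 12 weeks old, whose T cell receptor recognises the LCMV peptide gp33-41. By the sample labels, splenocytes received this peptide for 48 hours, with retrovirus added 18 hours after the peptide. They were then kept for 48 hours in IL-2, which yields cytotoxic T lymphocytes (CTL) on day 4. The legend of the study's gene list gives a longer time in IL-2 for this comparison, and which time holds is not known. The control cells carried the empty vector evGFP and the others carried GFP-KLF2, a fusion of GFP with the transcription factor KLF2. GFP positive cells of both were sorted before the RNA was extracted. Each group has 3 arrays, which the labels call biological replicates without saying whether they came from separate mice, so that p-values measure the spread between these samples, which may be technical. Both groups were thus activated, transduced and cultured in IL-2, and the construct was driven by a retrovirus and not by the *Klf2* gene.

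Ribosome synthesis begins with RNA polymerase I (Pol I), which transcribes the ribosomal RNA genes into a long precursor. Small nucleolar ribonucleoproteins (snoRNPs) then guide the modification and cleavage of this precursor, and separate sets of assembly factors build the small and the large ribosomal subunit around its parts. T cells that respond to antigen enlarge their nucleoli and make many ribosomes before and while they divide, and the transcription factor MYC is a known activator of many of these genes.

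All 30 genes had a lower mean in GFP-KLF2 than in evGFP CTL, and 24 of them fell (limma, adjusted p under 0.046). The other 6 did not pass the test, and none rose, also at an unadjusted p under 0.05, where 29 were lower. At this unadjusted limma p 3219 of all 18193 genes were lower and 2190 higher. Among all 18193 genes 8.35% fell and 6.22% rose. The members are well expressed, and among the 6956 genes with a mean log2 intensity of at least 8 the share that fell was 16.3%. Of these 6956 genes 2230 were lower and 1292 higher at an unadjusted limma p under 0.05. The changes of the members were small. The log2 fold change lay between -0.87 and -0.20 with a median of -0.49, against -0.01 over all genes and -0.08 over the brighter genes, and no member reached a 2-fold change. For 27 of the 30, all 3 GFP-KLF2 arrays lay below all 3 evGFP arrays. This held for 20.6% of all genes and for 2574 of the 6956 brighter genes. A gene is represented by its brightest probe set, levels are log2 intensities with the SD over 3 arrays, and adjusted p is by Benjamini-Hochberg over all 45037 probe sets. The arrays give each RNA relative to all others, so that fewer transcripts per cell and a larger share of other RNA cannot be told apart.

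**Figure D1:**
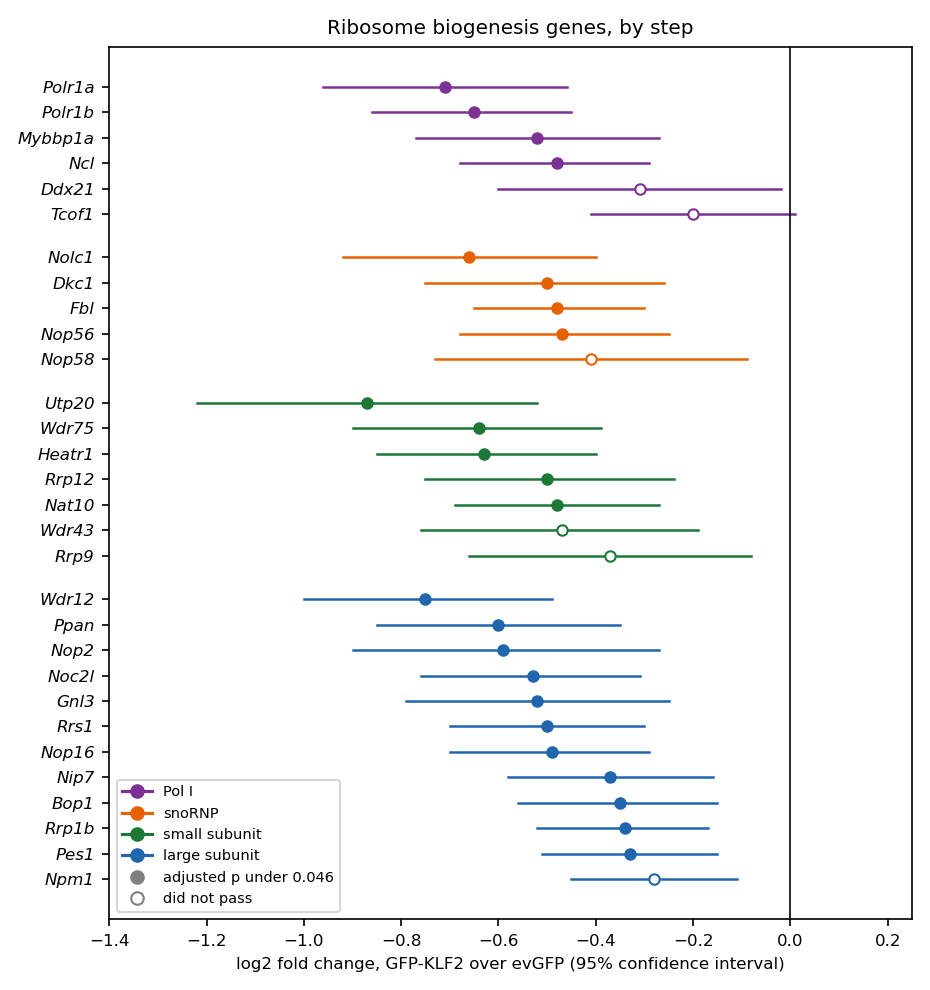
Log2 fold change of GFP-KLF2 over evGFP CTL (x axis) for the 30 ribosome biogenesis genes, ordered by step, with 95% confidence intervals from limma. Filled points passed at an adjusted p under 0.046 and open points did not, and all 30 points lie left of 0, from -0.87 for *Utp20* to -0.20 for *Tcof1*.

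The count depended on which array was left out. It was 11, 7 and 25 without evGFP replicate 1, 2 and 3, and 9, 14 and 14 without GFP-KLF2 replicate 1, 2 and 3, while the share of all genes that fell dropped from 8.35% to between 3.25% and 6.22% in the same fits. The members that passed with every single array left out were 6 in number, namely *Polr1a*, *Polr1b*, *Fbl*, *Nolc1*, *Heatr1* and *Wdr12*. The direction did not depend on any array, and the median over the members ranged from -0.57 to -0.45. Arrays with the same replicate number resembled each other and were taken as pairs for this reason, although the titles do not state pairs. In the fit with this number as a block 28 members fell, where 12.1% of all genes fell. In the 3 pairs of arrays all 30 members were lower in the GFP-KLF2 array, with median differences of -0.60, -0.51 and -0.39, whereas over all genes the medians were -0.03, -0.02 and 0.00.

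The evGFP arrays were not alike in these genes. All 30 members had their lowest evGFP level on the array of replicate 3, and 24 had their highest on that of replicate 1. The median distance of the members from their evGFP mean was 0.13, 0.05 and -0.16 log2 units on the 3 evGFP arrays, and -0.49, -0.47 and -0.55 on the GFP-KLF2 arrays. The array of GFP-KLF2 replicate 3 was the lowest of its group for 18 members.

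**Figure D2:**
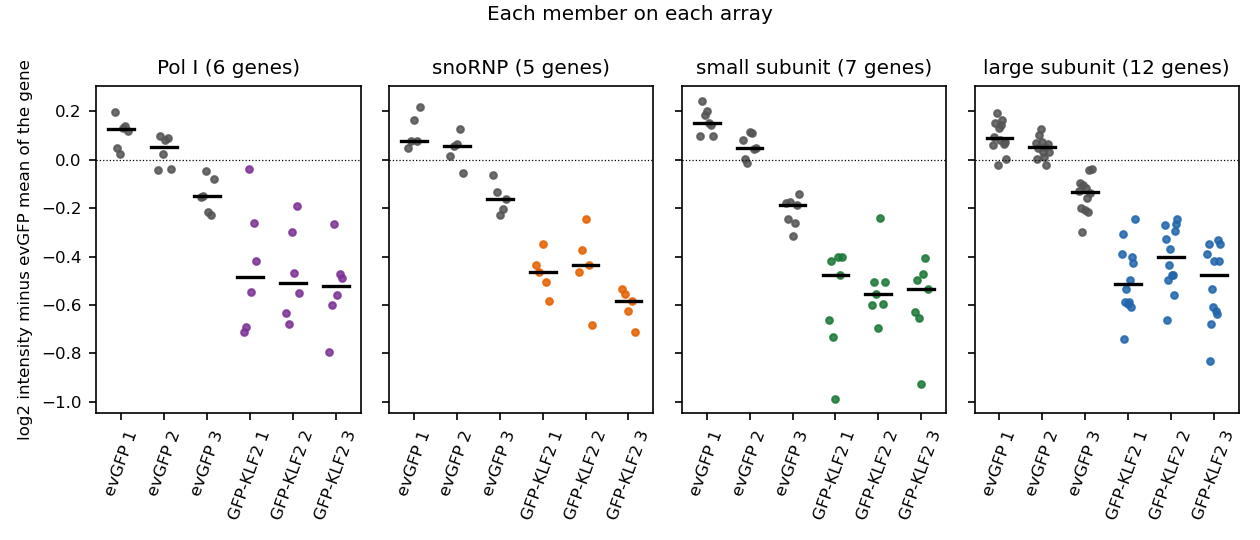
Level of each member on each of the 6 arrays, as log2 intensity minus the mean of the 3 evGFP arrays for that gene (y axis), in 4 panels by step. Points are genes and black bars the medians over the genes of the step, and the evGFP array of replicate 3 lies below the other evGFP arrays in every panel but above the medians of the GFP-KLF2 arrays.

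The cells had the markers of CD8 T cells. The 7 measured of 8 genes listed as such markers lay between 10.04 and 14.09 on every array, and *Cd4* between 6.49 and 6.81. Some of them, such as *Ptprc* and *Cd3d*, are not particular to CD8 T cells. Of 6 myeloid markers, 4 (among them the monocyte receptor *Cd14* and the macrophage marker *Adgre1*) were under the array median on all arrays, and of 4 measured B cell markers 1, *Pax5*, was. Others had more signal and higher means in GFP-KLF2 arrays without passing the test, with log2 fold changes of 0.43 for *Cd68* (limma adjusted p = 0.049, and 0.0252 with the replicate block), 0.31 for *Cd79a* (0.149) and 0.66 for *Ms4a1* (0.17). The groups of *Cd68* and *Cd79a* did not overlap. Of the genes listed as CD8 T cell markers *Cd8b1* rose by 0.45 and *Ptprc* by 0.40, while *Cd8a* did not pass (-0.14, limma adjusted p = 0.387). The summed level of the myeloid markers was 8.17 to 8.26 in evGFP and 8.35 to 8.49 in GFP-KLF2 arrays, that of the B cell markers 7.95 to 8.04 and 7.86 to 8.49, and that of the CD8 T cell markers 15.53 to 15.61 and 15.71 to 15.74. The difference between 3' and 5' *Actb* control probe sets, a sign of RNA quality, was 0.111 to 0.121 in evGFP and 0.0773 to 0.0837 in GFP-KLF2 arrays, whereas for *Gapdh* it was -0.179 to -0.116 and -0.169 to -0.139, so that the groups overlapped. The part of these differences in the results was not tested. The *Klf2* probe set (log2 fold change -0.64, limma adjusted p = 0.552) does not check the labels, because by the study's account such probes read the untranslated 3' end that the construct does not carry.

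MYC with its partner MAX is known to bind the E-box CACGTG, and KLF proteins bind sites rich in CACCC. Both were looked for in promoter sequences of RefSeq (GRCm38.p6, 250 bases before to 50 bases after the start site), which were found for 24 of the 30 members. CACGTG occurred in 5 of 28 promoter sequences of members (17.9%) and in 7.15% of all 32851 promoters, and the letters CCNCNCCC, on either strand, in 17 of 28 (60.7%) and in 49.5%. For other genes of ribosome synthesis the shares were 20.2% and 54% of 124 promoters. For ribosomal protein genes they were 11.4% and 56.8% of 44, so that the E-box share is not particular to the members. None of the 5 E-boxes overlapped a CCNCNCCC match. These matches are descriptions of sequence and not of binding. The E-boxes of the 5 members are shown with up to 10 bases on each side, 5′ to 3′ on the strand of the gene and with the E-box in capitals, because these genes span a large part of the range of changes seen, from -0.33 for *Pes1* to -0.87 for *Utp20*.
Nop2 (chr6:125131813-125131838, plus strand): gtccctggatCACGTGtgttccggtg
Pes1 (chr11:3963967-3963992, plus strand): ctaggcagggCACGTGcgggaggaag
Wdr43 (chr17:71616222-71616247, plus strand): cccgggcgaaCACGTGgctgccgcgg
Utp20 (chr10:88826765-88826787, minus strand): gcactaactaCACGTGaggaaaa
Mybbp1a (chr11:72441357-72441376, plus strand): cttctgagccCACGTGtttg
The E-box of *Nop2* begins 60 bases before the start site, while those of *Pes1*, *Wdr43*, *Utp20* and *Mybbp1a* begin at bases 3, 18, 38 and 41 of the transcript.

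*Myc* itself showed no such fall. Its level was 12.48, 12.20 and 11.76 on the evGFP arrays and 12.28, 12.43 and 11.98 on the GFP-KLF2 arrays. The groups overlap, and the log2 fold change of 0.08 (95% confidence interval -0.36 to 0.53, limma adjusted p = 0.854) did not pass the test. Its array of replicate 3 was the lowest in both groups.

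Of 6 genes of Pol I and of factors tied to its transcription, 4 fell, with a median log2 fold change of -0.50. *Polr1a*, the largest subunit of the enzyme, had 9.80, 9.56 and 9.45 in evGFP and 8.89, 8.97 and 8.81 in GFP-KLF2 CTL (log2 fold change -0.71, standard error 0.11, limma adjusted p = 0.00743). *Polr1b*, which encodes the subunit that forms the active centre together with it, had 9.33, 9.38 and 9.13 against 8.59, 8.60 and 8.68 (-0.65, 0.089, 0.00532). For both catalytic subunits the groups were separated by more than the range within either group. *Mybbp1a*, which encodes a nucleolar protein that regulates Pol I and the processing of its transcript, fell by 0.52 on the log2 scale (adjusted p = 0.0212), and its other probe set by 0.65.

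Nucleolin, encoded by *Ncl*, is among the most abundant nucleolar proteins and takes part in the transcription and first processing of ribosomal RNA. Its brightest probe set had 13.89, 13.73 and 13.69 in evGFP and 13.35, 13.22 and 13.28 in GFP-KLF2 CTL (log2 fold change -0.48, standard error 0.084, limma adjusted p = 0.0126). These are high levels, but 3 further probe sets of *Ncl* with less signal gave -0.75, -0.55 and -0.80 and passed as well. The probe set with the largest change lay at 10.69, 10.70 and 10.08 against 9.62, 9.91 and 9.51. The groups were apart on these 4 probe sets, while the fifth, whose signal was under the array median, had -0.23 with overlapping groups and did not pass (adjusted p = 0.404).

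The other 2 genes of this step did not pass. *Tcof1*, which encodes treacle, a scaffold that brings Pol I and snoRNPs to the ribosomal RNA genes, had 9.88, 9.88 and 9.81 in evGFP and 9.82, 9.56 and 9.59 in GFP-KLF2 CTL. The groups overlap, and its log2 fold change of -0.20 (95% confidence interval -0.41 to 0.01, limma adjusted p = 0.235) was the smallest of the 30, with -0.08 at both of its other probe sets. Within single arrays the level of *Polr1b* minus that of *Tcof1* was -0.68 to -0.50 in evGFP and -1.23 to -0.91 in GFP-KLF2, so that the change of these 2 genes was unequal. They were chosen after their values were seen and this difference was not tested. *Ddx21*, an RNA helicase that couples Pol I transcription with processing, had 11.15, 11.10 and 10.78 against 10.75, 10.82 and 10.54, where the groups overlap, and its change of -0.31 missed the threshold (limma adjusted p = 0.177, and 0.0416 with the replicate block).

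Among 5 genes of snoRNPs 4 fell, with a median of -0.48. The box C/D particles, which place methyl groups on ribosomal RNA, contain the methyltransferase fibrillarin, encoded by *Fbl*, and the paralogous core proteins of *Nop56* and *Nop58*. *Fbl* had 13.03, 13.00 and 12.92 in evGFP and 12.55, 12.52 and 12.45 in GFP-KLF2 CTL (log2 fold change -0.48, standard error 0.074, limma adjusted p = 0.00854). Its other probe set fell by 0.41 on the log2 scale. *Nop56* had 12.66, 12.64 and 12.45 against 12.12, 12.21 and 12.03 (-0.47, 0.091, 0.0182).

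*Nop58* had 12.31, 12.21 and 11.92 against 11.80, 11.90 and 11.52. Here the highest GFP-KLF2 array and the lowest evGFP array almost touch, and the log2 fold change of -0.41 did not pass (limma adjusted p = 0.11, 0.0187 with the replicate block). The transcripts of these 3 genes thus had values from -0.48 to -0.41.

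The box H/ACA particles convert uridine to pseudouridine by means of dyskerin, the product of *Dkc1*. This gene fell by 0.50 on the log2 scale (adjusted p = 0.0234), and its other probe sets by 0.59 and 0.51. *Nolc1*, which encodes a chaperone that binds both classes of snoRNP, had 12.08, 11.81 and 11.70 in evGFP and 11.28, 11.18 and 11.15 in GFP-KLF2 CTL (-0.66, standard error 0.11, limma adjusted p = 0.0108). It had the largest change of this step, and of its other probe sets 1 fell (-0.77) and 1 did not pass (-0.60, adjusted p = 0.0599).

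Of 7 genes of the small subunit 5 fell, with a median of -0.50. *Utp20*, which encodes a large component of the complex that processes the precursor of the small subunit, had 10.61, 10.52 and 10.09 in evGFP and 9.42, 9.71 and 9.48 in GFP-KLF2 CTL. Its fall to 54.7% of the evGFP level (log2 fold change -0.87, standard error 0.15, limma adjusted p = 0.0124) was the largest of the 30. It did not pass without evGFP replicate 2 or GFP-KLF2 replicate 1 (adjusted p up to 0.0545).

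*Heatr1*, *Wdr43* and *Wdr75* belong to a subcomplex that joins the nascent transcript early and is also needed for Pol I transcription. *Heatr1* had 11.12, 11.10 and 10.84 in evGFP and 10.36, 10.42 and 10.39 in GFP-KLF2 CTL (log2 fold change -0.63, standard error 0.095, limma adjusted p = 0.00795). Its other probe sets had -0.40 and, with signal under the array median, -0.06, and did not pass (limma adjusted p = 0.0678 and 0.81). *Wdr75* fell by 0.64 (limma adjusted p = 0.0112), while its dimmer probe set had -0.18 and did not pass (0.502). *Wdr43* had 11.64, 11.40 and 11.15 against 10.98, 10.89 and 10.90, where the evGFP arrays spread more than those of the other group. Its log2 fold change of -0.47 lay just outside the threshold (adjusted p = 0.0493, 0.0232 with the replicate block).

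*Nat10*, an acetyltransferase that modifies small subunit RNA, and *Rrp12*, which takes part in the maturation and nuclear export of subunits, fell by 0.48 and 0.50 on the log2 scale (adjusted p = 0.0166 and 0.0265). *Rrp9*, a protein of the snoRNP that the small subunit needs for its first cleavages, had 10.24, 10.20 and 9.83 against 9.69, 9.85 and 9.62. A GFP-KLF2 array lies above the lowest evGFP array, and the log2 fold change of -0.37 did not pass (limma adjusted p = 0.112, 0.0393 with the replicate block). *Utp20* minus *Rrp9*, set against each other after their values were seen, was 0.26 to 0.37 in the evGFP arrays and -0.28 to -0.13 in the GFP-KLF2 arrays.

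Of 12 genes of the large subunit 11 fell, with a median of -0.50. The products of *Pes1*, *Bop1* and *Wdr12* form a complex that is needed to process the large subunit RNA. *Wdr12* had 10.52, 10.42 and 10.17 in evGFP and 9.63, 9.71 and 9.54 in GFP-KLF2 CTL (log2 fold change -0.75, standard error 0.11, limma adjusted p = 0.00679). *Bop1* had 10.33, 10.34 and 10.14 against a mean of 9.92 ± 0.07 (SD, n = 3; -0.35, 0.088, 0.0424), and *Pes1* had 10.77, 10.68 and 10.58 against 10.37, 10.35 and 10.33 (-0.33, 0.078, 0.0362).

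All 3 genes of the complex were lower in every GFP-KLF2 array than in any evGFP array, but by unequal amounts. *Wdr12* minus *Bop1* was 0.03 to 0.19 in evGFP arrays and -0.34 to -0.25 in GFP-KLF2 arrays, and *Wdr12* minus *Pes1* was -0.42 to -0.25 and -0.79 to -0.64. These pairs were also picked after their values were seen and have no test. *Bop1* and *Pes1* did not pass without evGFP replicate 1 or 2 or without any of the GFP-KLF2 arrays (adjusted p up to 0.142 and 0.111).

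The assembly factors *Rrs1*, *Ppan*, *Noc2l*, *Nop16* and *Rrp1b* fell by 0.50, 0.60, 0.53, 0.49 and 0.34 on the log2 scale (adjusted p = 0.0129, 0.014, 0.0146, 0.0138 and 0.0276). *Rrs1* recruits RNA and proteins of the large subunit early in its assembly, and had 11.25, 11.40 and 11.17 in evGFP and 10.74, 10.84 and 10.74 in GFP-KLF2 CTL. *Ppan* had 10.86, 10.75 and 10.48 against 10.09, 10.14 and 10.06. Neither gene had overlapping groups. *Nip7*, which is needed to process the precursor, fell by 0.37 (0.0408), although its dimmer probe set had -0.07.

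*Nop2*, a methyltransferase of large subunit RNA that is known as a proliferation antigen, had 10.63, 10.54 and 10.14 in evGFP and 9.85, 9.94 and 9.76 in GFP-KLF2 CTL (log2 fold change -0.59, standard error 0.13, limma adjusted p = 0.0313). It passed with evGFP replicate 3 left out but with no other array left out (adjusted p up to 0.109). *Gnl3*, which encodes nucleostemin, a GTP binding protein of the nucleolus of dividing cells, fell by 0.52 (0.0296).

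*Npm1*, which encodes the abundant nucleolar chaperone nucleophosmin, was the member of this step that did not pass. Its brightest probe set had 14.04 ± 0.036 (SD, n = 3) in evGFP and 13.79, 13.79 and 13.69 in GFP-KLF2 CTL, with a log2 fold change of -0.28 (standard error 0.073, limma adjusted p = 0.048). The groups are apart, yet these levels lie close to the top of the arrays at 15.04, where saturation can reduce a difference. The other probe set, at 13.95, 13.82 and 13.67 against 13.45, 13.35 and 13.26, passed with -0.46 (adjusted p = 0.0244).

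The 4 steps thus had nearly the same median change, from -0.50 to -0.48, and no difference between steps was tested. In the 3 pairs of arrays the medians were -0.61, -0.53 and -0.37 for Pol I, -0.54, -0.48 and -0.42 for snoRNPs, -0.66, -0.55 and -0.39 for the small subunit and -0.57, -0.47 and -0.35 for the large subunit. Each step thus had its smallest difference in the pair of replicate 3. With *Heatr1*, *Wdr43*, *Wdr75* and *Nolc1* counted with Pol I, and *Ncl*, *Npm1*, *Ddx21*, *Mybbp1a* and *Rrp12* left out as factors of several steps, 5 of 7 genes fell for Pol I (median -0.64), 3 of 4 for snoRNPs (-0.47), 2 of 3 for the small subunit (-0.48) and 11 of 11 for the large subunit (-0.50). Within a step the genes ranged from -0.71 to -0.20 for Pol I, -0.66 to -0.41 for snoRNPs, -0.87 to -0.37 for the small subunit and -0.75 to -0.28 for the large subunit under the first grouping, while the snoRNP genes of the other grouping ranged from -0.50 to -0.41.

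Several probe sets were available for 22 of the 30 genes. Of all 64 probe sets 38 fell, 26 did not pass and 62 had a negative difference, where 6.39% of all 45037 probe sets fell. The 2 that were higher, 1 each of *Polr1a* (0.03) and *Nat10* (0.09), did not pass. The array medians were 5.64 to 5.67, and of 6 member probe sets below that level 1 passed, a probe set of *Nop16* with -0.34. Among 21 genes with more than 1 probe set above it, all of these fell for 7 genes, some for 11 and none for 3, namely *Tcof1*, *Ddx21* and *Wdr43*. The 2 probe sets of *Polr1a* with the next highest signal had -0.59 and -0.43 and did not pass (adjusted p = 0.111 and 0.0813, 0.00705 and 0.0158 with the replicate block).

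**Figure D3:**
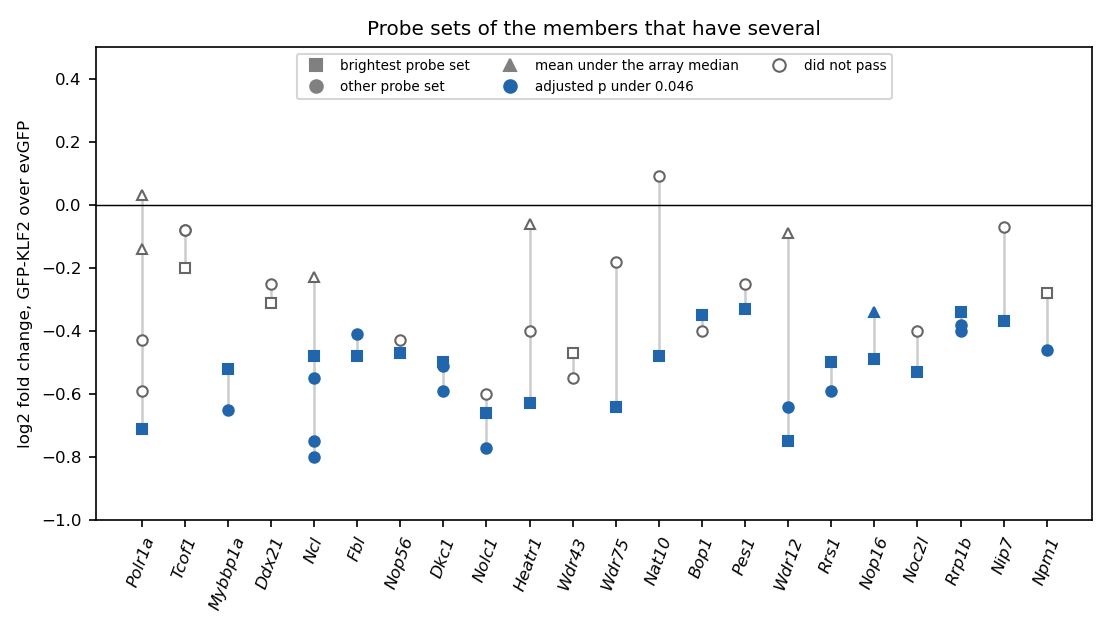
Log2 fold change of GFP-KLF2 over evGFP CTL (y axis) at every probe set of the 22 members that have several. Squares are the brightest probe sets, triangles those with a mean under the array median, filled symbols passed at an adjusted p under 0.046, and the points above 0 are a dim probe set of *Polr1a* (0.03) and a probe set of *Nat10* (0.09).

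Some of these genes carry small nucleolar RNA genes in their introns and so supply both proteins and guide RNAs. In the RefSeq annotation of GRCm38.p6 snoRNA genes lie within the span of 7 of the 30 members (23.3%), namely *Ncl*, *Nop56*, *Nop58*, *Dkc1*, *Wdr43*, *Gnl3* and *Ppan*, with 20 snoRNA genes in all, against 1.7% of 21900 protein-coding genes. *Nop56* holds 5 and *Nop58* 4, including *Snord57* and *Snord110* in the former and *Snord70* in the latter. *Ncl* holds *Snora75* and *Snord82*, and *Gnl3* holds *Snord19* and *Snord69*. Of the 7 host genes 5 fell, while *Nop58* and *Wdr43* had -0.41 and -0.47 and did not pass. The snoRNAs themselves were not measured.

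A list of 126 other measured genes of ribosome synthesis (of 129 listed) gave lower values as well. Of these 52 fell (41.3%, against 8.35% of all genes), 74 did not pass and none rose. At an unadjusted limma p under 0.05, 86 were lower and 1 higher. Their median of -0.33 was smaller than that of the 30 members. The number that fell was 24, 21 and 57 without evGFP replicate 1, 2 and 3, and 25, 27 and 29 without GFP-KLF2 replicate 1, 2 and 3. By step 4 of 13 fell for Pol I (median -0.24), 6 of 12 for snoRNPs (-0.43), 18 of 49 for the small subunit (-0.32) and 24 of 52 for the large subunit (-0.36).

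Among these genes *Taf1d*, which encodes a subunit of the selectivity factor of Pol I, had 9.93, 9.50 and 9.32 in evGFP and 8.62, 8.70 and 8.62 in GFP-KLF2 CTL (log2 fold change -0.94, limma adjusted p = 0.00904). The Pol I subunit genes *Cd3eap* and *Polr1e* fell by 0.57 and 0.41 on the log2 scale. *Ruvbl1*, *Ruvbl2* and *Rpap3*, which encode proteins of a chaperone complex that assembles box C/D snoRNPs and other particles, fell by 0.77, 0.65 and 0.81. *Ruvbl1* had 10.59, 10.52 and 10.46 against 9.72, 9.67 and 9.87 (adjusted p = 0.00269).

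For the small subunit *Nol11*, *Utp25* and *Rcl1* fell by 0.79, 0.69 and 0.66 on the log2 scale. For the large subunit *Rrp15*, *Tma16* and *Mdn1*, which encodes a giant ATPase that removes assembly factors, fell by 0.87, 0.74 and 0.71. *Rrp15* had 10.44, 10.42 and 10.05 in evGFP and 9.41, 9.47 and 9.41 in GFP-KLF2 CTL (adjusted p = 0.00463). These genes were named because they passed with the largest changes of their step. Over all 126 genes the log2 fold change ran from -0.94 to 0.23, against -0.87 to -0.20 for the 30 members.

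The genes of the ribosomal proteins, which are the building blocks and not the builders, had a median of -0.02. Of 43 measured 3 fell, namely *Rpl12* (-0.68), *Rps25* (-0.48) and *Rpl14* (-0.47), and 40 did not pass. This share of 6.98% stands beside 8.35% of all genes and 16.3% of genes with a mean log2 intensity of at least 8. The number that fell was 6 when probe sets were averaged per gene, 9 by any probe set and 5 without cross-hybridising probe sets. Under the same settings 9.04%, 10.2% and 7.97% of all genes fell. However, 33 of the 43 lay at 14 or above on every array, where saturation can hide a difference, whereas 1 of the 30 biogenesis genes, *Npm1*, reached 14 on any array. For the 10 ribosomal protein genes with a mean under 14 the median was -0.06, and the 3 that fell are among these (30%). The evGFP means of the latter were 9.40 for *Rpl12*, 10.50 for *Rps25* and 9.50 for *Rpl14*. All GFP-KLF2 arrays lay below all evGFP arrays for 5 of these 10 and 19 of the 43. This held for 20.6% of all genes and for 2574 of the 6956 genes with a mean of at least 8. Of 39 genes of DNA replication 15 fell (38.5%), with a median of -0.28. The share that fell was 41.3% for the other ribosome synthesis genes, 16.3% for genes with a mean of at least 8 and 8.35% for all genes. Of the DNA replication genes 1, 2 and 7 fell without evGFP replicate 1, 2 and 3, and 4, 3 and 6 without GFP-KLF2 replicate 1, 2 and 3. In these fits 3.25% to 6.22% of all genes fell.

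**Figure D4:**
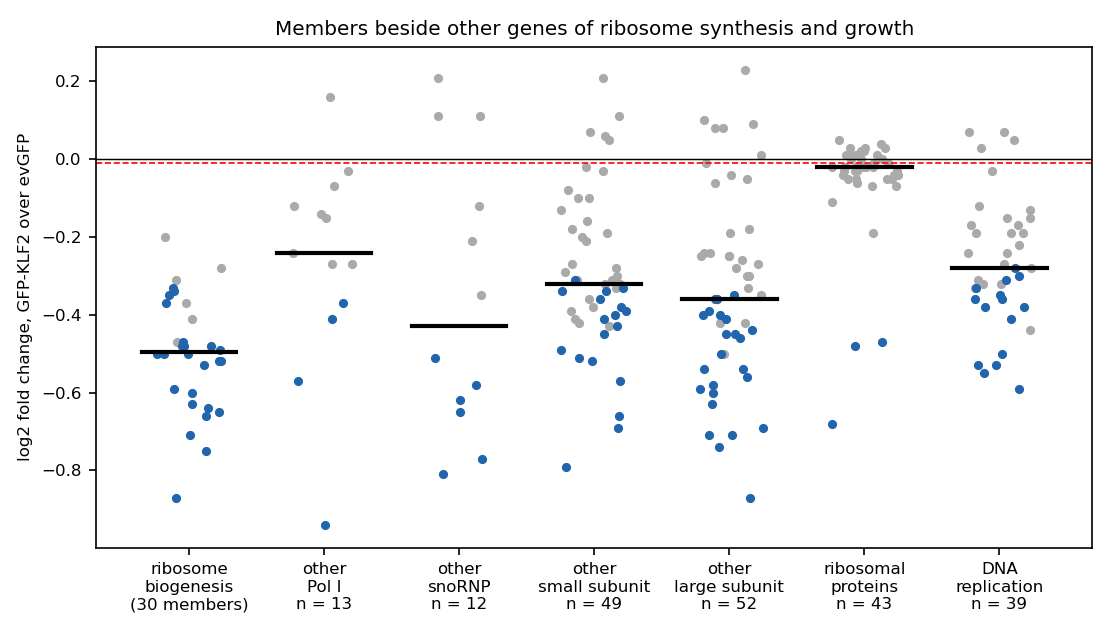
Log2 fold change of GFP-KLF2 over evGFP CTL (y axis) for the 30 members, for other ribosome synthesis genes by step, and for ribosomal protein and DNA replication genes. Each point is a gene, blue where it passed at an adjusted p under 0.046 and grey where it did not, black bars are medians (-0.49 for the members, -0.02 for ribosomal proteins), and the red dashed line is the median of all genes at -0.01.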

How the data were processed

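RNA of 6 arrays (3 evGFP and 3 GFP-KLF2 CTL, grouped by their titles) was analysed. Per the methods and labels, the authors used RMA for background, normalization and summary and deposited 1 intensity per probe set and array on a linear scale (5.74 to 33638). The versions of the RMA and limma software are not given in the sources used here. Here log2 was taken, 64 control probe sets of 45101 were removed and 45037 were fitted with limma 3.58.1 in R 4.3.3, with a constant per group and 2-sided moderated tests. The threshold of 0.046 was used because the study's list holds larger values than the 0.00046 that its methods print. The methods also ask for a change of at least 2-fold, which was not applied here and which no member reached. Of the probe sets 34945 have 1 gene in GEO's platform annotation, 932 several and 9160 none. The number of arrays limits the precision, and with 3 against 3 an exact permutation test cannot go below p = 0.1.

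The members, their steps and the comparison lists were chosen with earlier results of these data known. All 30 members are named. Of the other ribosome synthesis genes the 3 that passed with the largest changes are named in each step, and also the ribosomal protein genes that fell, which were named after their values were seen. Ribosomal protein genes were taken by symbol (Rpl or Rps with a number, *Rplp0* to *Rplp2* and *Rpsa*). Arrays with the same replicate number deviated alike from their group means (correlations over all probe sets of 0.33, 0.44 and 0.47), so that the numbers were taken to pair the arrays. Correlations within a group were 0.993 to 0.996. Alternatives were the replicate block, other thresholds, centring, quantile normalization, cyclic loess, a trended and robust prior, weights for arrays, a filter on dim probe sets, other ways to sum up probe sets per gene, removal of cross-hybridising ones, another grouping of steps and leaving out each array. The fit was tested on simulated data.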

Additional observations from a re-analysis of the deposited data

Results flagged for a closer look

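The arrays carry control probe sets for 18S ribosomal RNA, which are not part of the comparison because the labelling reaction starts from poly(A) tails and does not measure the amount of ribosomal RNA. The probe set of the 3' end had 9.94, 10.41 and 9.94 in evGFP and 10.61, 11.08 and 10.45 in GFP-KLF2 arrays, higher by 0.62 log2 units on average and in each of the 3 GFP-KLF2 arrays than in any evGFP array. At the other 18S probe sets, of the 5' end and the middle, the means differed by 0.45 and 0.44 and the groups overlapped. These differences were not tested across genes, since control probe sets were outside the fit. The groups of 3 arrays are too small to look for single outlying arrays.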

How the results depend on the processing

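All 30 members remained lower in GFP-KLF2 CTL under each of 18 alternatives. Of the 540 values, 415 kept their side of the threshold, 104 no longer passed and 21 newly passed. At an adjusted p under 0.00046 none of the 30 members fell. Nor did any of the other ribosome synthesis (0), ribosomal protein (0) or DNA replication genes (0). At this threshold 34 of all genes passed, 31 higher and 3 lower. At an unadjusted limma p under 0.05, 29 members and 3219 of all 18193 genes were lower. Cyclic loess left 17 members, 27 other ribosome synthesis genes, 6 DNA replication genes and 961 of all genes that fell, and 59.1% of the genes that passed were higher against 42.7% in the fit reported. Ribosomal protein genes that fell were 6 by the mean of all probe sets, 9 by any probe set and 5 without cross-hybridising probe sets. Under the same settings 9.04%, 10.2% and 7.97% of all genes fell. With the other grouping of steps 2 small subunit genes fell. With single arrays left out, the number that fell was 7 to 25 for members, 21 to 57 for other ribosome synthesis genes, 2 to 3 for ribosomal proteins, 1 to 7 for DNA replication genes and 591 to 1132 for all genes, while 556 to 1041 of all genes rose and 1147 to 2173 passed either way, and the median of the members was -0.573 to -0.451. In the fit with the replicate block 28 members, 67 other ribosome synthesis genes and 17 DNA replication genes fell. It added *Ddx21*, *Nop58*, *Wdr43* and *Rrp9* and changed no other call among the members. Signal near the top of the arrays can limit what is seen for *Npm1* and most ribosomal protein genes, and low signal can limit the dim probe sets. Neither was tested.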
